A study of Homo sapiens with 9 samples.

Results

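The nuclear-encoded respiratory chain subunits were 88 of the 59453 gene names in a table of raw RNA-Seq counts from MDA-MB-231 cells, a human triple-negative breast cancer line. They were every name that begins with NDUFA, NDUFB, NDUFC, NDUFS, NDUFV, UQCR, COX4 to COX8 or ATP5, together with SDHA to SDHD. In all 268 names matched. Left out were 14 names with the assembly factor prefix NDUFAF, whatever their ending. So were 5 hyphenated antisense, divergent or readthrough names and 161 other names ending like pseudogenes. By complex the members were 37 genes of complex I, 4 of complex II, 9 of complex III, 19 of complex IV and 19 of complex V. NDUFA4 and NDUFA4L2 were counted with complex IV, where the NDUFA4 protein resides despite its name. The cells were untreated, or were cultured with the copper chelator TEPA for 8 h or for 24 h, with 3 libraries in each group. No other agent or genetic change separated the groups, and the comparisons ask how the subunit genes responded to copper chelation at either time.

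Several features limit these groups as a model. The labels gave a dose of 8 mM TEPA, while the study's RNA sequencing methods named a lower one. The study's text and its reagent list gave the chelator different chemical names. A single untreated group served both times, so the 8 h and 24 h comparisons share their controls, and no harvest time was given for it. No source said that the 3 libraries of a group came from separate cultures, so p-values measure only the spread between these libraries, which may be technical. All values are relative to the rest of each library: in bulk RNA, fewer cells of a type and less RNA per cell cannot be told apart.

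The respiratory chain of the inner mitochondrial membrane passes electrons from NADH (complex I) and succinate (complex II) through ubiquinone to complex III, and then through cytochrome c to oxygen at complex IV. The proton gradient that complexes I, III and IV build drives ATP synthesis at complex V. Most subunits are encoded in the nucleus and imported, and they assemble around a small core made inside the mitochondrion, except in complex II, which is wholly nuclear-encoded. Complex IV, cytochrome c oxidase, is a copper enzyme whose copper atoms sit in subunits encoded by the mitochondrial genome.

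Total counts ran from 34633755 to 49342659 per library, and mitochondrially encoded genes took 1.79% to 4.02% of them. The mesenchymal-like identity of the line was checked on its markers. VIM lay between 3242 and 4435 CPM, the usual library-scaled count taken here on TMM-scaled library sizes, CD44 and EGFR were also expressed, PGR had no count, and ESR1, CDH1 and EPCAM stayed at or below 0.240, 3.89 and 1.86 CPM. ERBB2 lay between 51.9 and 87.1 CPM. Among the markers of other cell types, PTPRC stayed at or below 0.133 CPM, whereas PECAM1 (0.850 to 8.98 CPM), COL1A1 (13.1 to 32.8 CPM) and PDGFRB (24.3 to 99.4 CPM) were detected. PECAM1 and PDGFRB were highest after 24 h and COL1A1 after 8 h; their part in the values below was not tested.

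After 8 h of TEPA, most subunit genes were slightly lower than in untreated cells. Of 80 members with enough counts to test, 52 fell, 8 rose and 20 passed no threshold, at an adjusted p under 0.05 in edgeR's quasi-likelihood test with Benjamini-Hochberg adjustment over all 16556 genes tested. Among all genes tested, 24.5% were called lower and 25.2% higher, against 65.0% and 10.0% of the members. The falls were small. Members called lower had log2 fold changes from -0.42 to -0.12, and the median over the members tested was -0.17, against -0.001 over all genes tested. Complexes III and IV were the most uniform, with 8 of 9 and 11 of 12 members lower and none higher. The corresponding counts were 20 lower and 6 higher of 37 in complex I, 2 lower of 4 in complex II, and 11 lower and 2 higher of 18 in complex V. The number of higher members depended on single libraries. It was 5 without untreated replicate 1, untreated replicate 3 or TEPA 8 h replicate 3, and 4 without TEPA 8 h replicate 2, while the number of lower members stayed between 50 and 56.

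After 24 h fewer members differed from untreated cells. In this comparison 36 members fell and 3 rose, against 26.8% and 25.7% of all genes tested, and the members' median was -0.10 against 0.002. By complex, 15 members were lower and 2 higher in complex I, 1 was lower in complex II, 5 were lower in complex III, 5 were lower in complex IV, and 10 were lower and 1 higher in complex V. From 8 h to 24 h 29 members rose and 13 fell, where 26.0% of all genes tested were higher and 28.8% lower. NDUFA13 was the member beyond a log2 fold change of 0.5 in this comparison, a size that 21.2% of all genes tested passed in either direction. Complex IV moved in 1 direction, with 8 of 12 members higher at 24 h than at 8 h and none lower, and its median difference was 0.15. In complex I, 13 were higher and 8 lower.

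Subunit messages are short and abundant, and genes with both properties were themselves lower more often than all genes tested. The members' median canonical transcript was 757 bases, against 3376 bases for protein-coding genes tested, and their median level was 69.3 CPM, against 17.8 CPM over all genes tested. Of 677 protein-coding genes tested with a canonical transcript under 1000 bases, 39.3% were lower at 8 h and 16.7% higher. Of 7924 genes tested with a mean of at least 20 CPM, 31.4% were lower at 8 h and 27.9% higher, so level alone went with more calls in both directions. Under both limits, 45.4% of 394 genes were lower at 8 h and 15.7% higher, and their median was -0.09. At 24 h, 44.9% of those 394 genes were lower and 16.2% higher, so the members' 45.0% lower at 24 h was near that share, while their 65.0% at 8 h lay above it. From 8 h to 24 h, 31.7% of the 394 genes were higher and 33.2% lower, against 36.25% and 16.25% of the members. These 2 limits were chosen after the values were seen, the members themselves are among the genes counted, and the part of transcript length in the members' values was not tested.

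**Figure D1:**
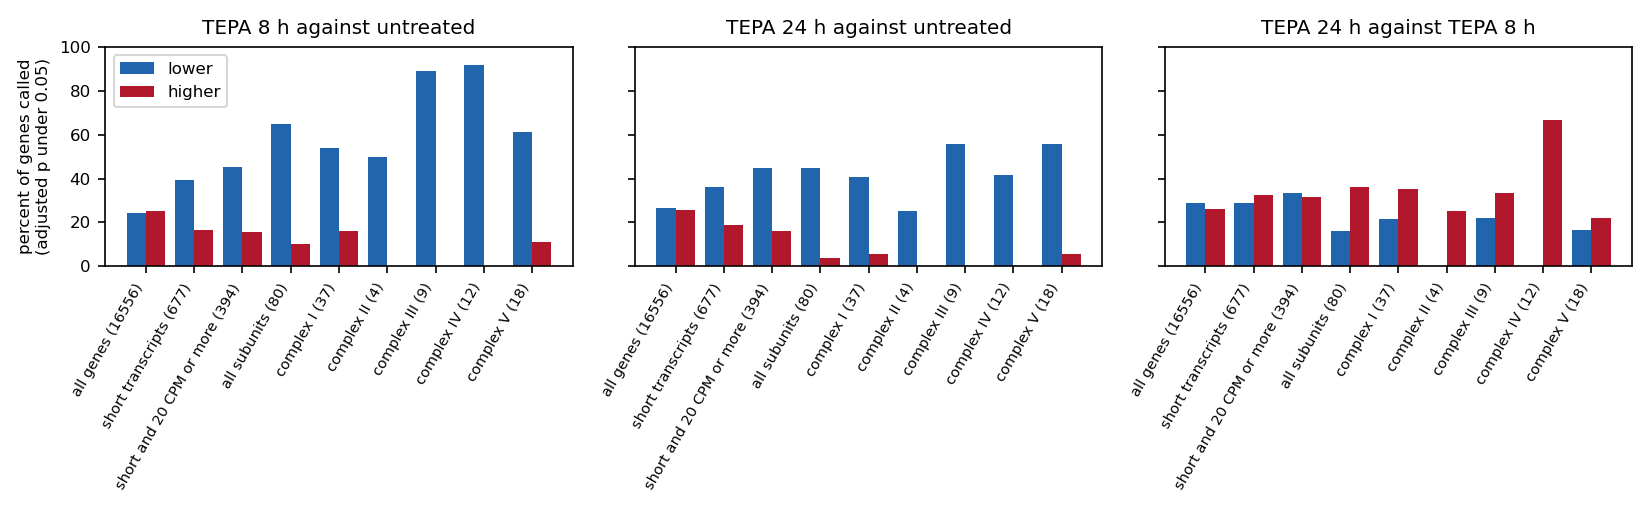
Bars give the percent of genes called lower (blue) or higher (red) at an adjusted p under 0.05 in each comparison, for all genes tested, short-transcript genes, short-transcript genes at 20 CPM or more, all subunit genes and each complex, with the number tested in parentheses. Complexes III and IV stand highest among the lower calls at 8 h, and complex IV stands highest among the higher calls from 8 h to 24 h.

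**Figure D2:**
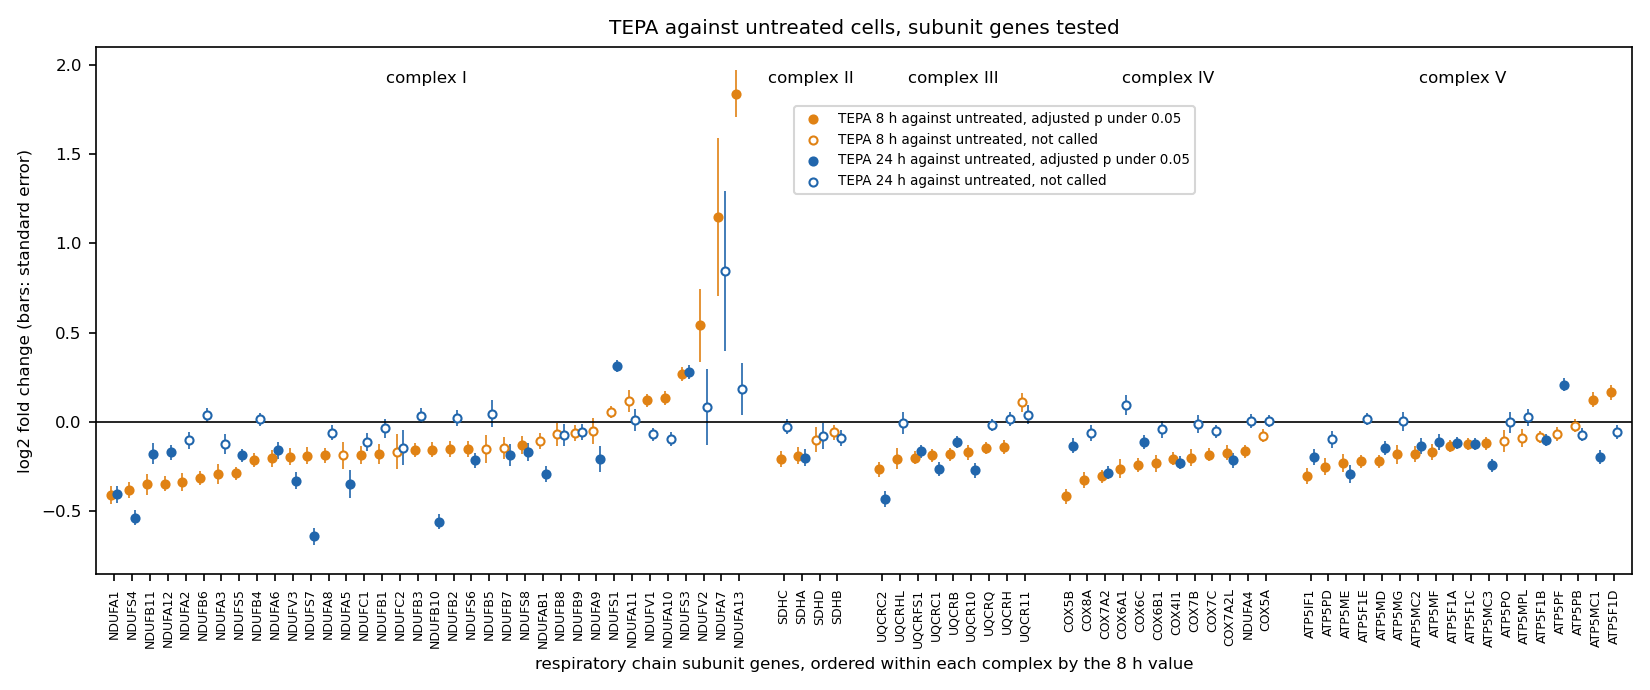
Points give subunit genes tested, each by its log2 fold change against untreated cells after 8 h (orange) and 24 h (blue) of TEPA, with its standard error; filled points had an adjusted p under 0.05. Most points lie between 0 and -0.42 at 8 h, NDUFS7, NDUFB10 and NDUFS4 lie lowest at 24 h, and NDUFA13, NDUFA7 and NDUFV2 stand far above the others at 8 h.

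Transcription of subunit genes is classically linked to the factors NRF1, GABP (which binds ETS letters), YY1 and Sp1. Promoter windows of 300 bases, 250 before and 50 after the start, were taken from RefSeq (GRCh38.p14) for 66 of the 80 members tested, the first listed where 9 members had several. Among those with no match were ATP5F1B, ATP5F1D, ATP5MC3, ATP5MF, COX6C, NDUFA4, NDUFB5, NDUFB9, NDUFC2, NDUFS5, SDHC, UQCRB and UQCRHL. Both strands were searched for 5 sets of letters, and matches to different sets overlapped in 1 member's window. The NRF1 letters, GCGCA and GCGC with any 1 base between them, were in 24.2% of member windows, against 11.5% of the first windows of 11048 genes tested and 5.78% of all 35116 windows. The ETS letters CCGGAAG were in 30.3%, 18.9% and 10.3% of these in the same order. The YY1 letters AAGATGG were in 24.2%, 7.45% and 5.84%. The Sp1 letters GGGCGG (62.1%, 69.8% and 45.0%) and the CCAAT box (33.3%, 36.5% and 34.6%) were not more frequent among members than among genes tested. By complex the NRF1 letters were in 0 of 10 windows of complex IV, 6 of 32 of complex I, 2 of 3 of complex II, 4 of 7 of complex III and 4 of 14 of complex V, and the ETS letters were in 5 of 10 windows of complex IV. These matches describe the letters only.

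Windows of 5 members that recur below are shown, because they cover the lowest member of complex IV at 8 h (COX5B), the lowest of complex III (UQCRC2), the lowest of complex I at 24 h (NDUFS7) and members higher at 24 h (NDUFS1 and ATP5PF). Capitals mark matches to any of the 5 sets of letters on either strand, and each run reads 5′ to 3′ along its gene.
COX5B promoter, chr2:97645812-97646111 (+ strand): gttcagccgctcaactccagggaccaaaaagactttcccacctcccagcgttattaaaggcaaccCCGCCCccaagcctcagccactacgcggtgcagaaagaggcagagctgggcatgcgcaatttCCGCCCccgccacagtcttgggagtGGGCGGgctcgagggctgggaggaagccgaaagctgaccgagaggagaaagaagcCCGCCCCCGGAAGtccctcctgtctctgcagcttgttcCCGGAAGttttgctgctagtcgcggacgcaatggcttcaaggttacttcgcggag
UQCRC2 promoter, chr16:21953111-21953410 (+ strand): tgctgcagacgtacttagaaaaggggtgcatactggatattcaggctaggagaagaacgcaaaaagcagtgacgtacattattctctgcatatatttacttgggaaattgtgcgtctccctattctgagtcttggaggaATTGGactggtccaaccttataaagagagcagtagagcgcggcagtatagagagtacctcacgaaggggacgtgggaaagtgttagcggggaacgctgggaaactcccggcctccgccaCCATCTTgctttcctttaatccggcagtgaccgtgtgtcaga
NDUFS7 promoter, chr19:1383657-1383956 (+ strand): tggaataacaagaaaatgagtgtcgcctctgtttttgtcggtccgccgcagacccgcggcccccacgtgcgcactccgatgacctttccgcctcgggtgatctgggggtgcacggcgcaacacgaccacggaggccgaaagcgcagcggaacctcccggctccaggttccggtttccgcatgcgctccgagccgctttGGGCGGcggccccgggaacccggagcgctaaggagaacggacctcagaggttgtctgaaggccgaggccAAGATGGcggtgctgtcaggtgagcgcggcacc
NDUFS1 promoter, chr2:206159395-206159694 (- strand): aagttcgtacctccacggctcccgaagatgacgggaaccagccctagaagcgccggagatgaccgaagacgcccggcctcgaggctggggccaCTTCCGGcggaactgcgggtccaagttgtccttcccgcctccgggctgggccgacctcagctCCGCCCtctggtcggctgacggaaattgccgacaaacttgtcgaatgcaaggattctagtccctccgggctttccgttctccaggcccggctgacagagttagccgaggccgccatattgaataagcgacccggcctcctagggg
ATP5PF promoter, chr21:25735005-25735304 (- strand): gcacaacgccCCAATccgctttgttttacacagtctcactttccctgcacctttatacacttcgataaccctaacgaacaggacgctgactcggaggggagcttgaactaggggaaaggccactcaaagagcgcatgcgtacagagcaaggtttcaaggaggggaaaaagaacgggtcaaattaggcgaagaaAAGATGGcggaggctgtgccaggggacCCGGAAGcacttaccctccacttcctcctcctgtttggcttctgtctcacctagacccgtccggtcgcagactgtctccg
The COX5B window held the ETS letters at 37 and 5 bases before the start and Sp1 letters at 4 places. UQCRC2 held the YY1 letters, on the reverse strand, from base 9 after the start, and NDUFS7 held them from base 18. In the NDUFS1 window the ETS letters lay 157 bases before the start, and the ATP5PF window held YY1 and ETS letters 57 and 30 bases before it.

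Complex IV showed the most uniform fall at 8 h and the clearest return by 24 h. COX5B, a zinc-binding subunit on the matrix side whose promoter is printed above, stood at 135, 124 and 132 CPM in the untreated libraries, 94.6, 98.2 and 100.2 CPM after 8 h, and 116, 122 and 118 CPM after 24 h. All 3 libraries at 8 h lay below all untreated ones, and the 24 h libraries lay between the groups, though nearer to untreated. On the log2 scale it differed from untreated by -0.42 ± 0.04 at 8 h (adjusted p = 8.9e-07). By 24 h the difference was -0.13 ± 0.04 (adjusted p = 0.013), after a rise of 0.28 ± 0.04 from 8 h (adjusted p = 3e-05). The 24 h fall missed the threshold without untreated replicate 3 (-0.12, adjusted p = 0.051) and without TEPA 24 h replicate 1 (-0.12, adjusted p = 0.066). COX6A1, the widely expressed form of a regulatory subunit, had 107, 97.8 and 99.1 CPM in the untreated libraries, 80.3, 85.8 and 87.4 CPM after 8 h, and 105, 118 and 101 CPM after 24 h. It fell at 8 h (-0.26 ± 0.05, adjusted p = 0.0010) and rose by 0.36 ± 0.05 from 8 h to 24 h (adjusted p = 4.9e-05), when its libraries overlapped the untreated ones. Pseudogenes named after COX6A1 held counts equal to 13.2% of its own, which limits that gene's values. COX6C, a small membrane subunit, had 87.4, 85.0 and 80.0 CPM in the untreated libraries, 72.3, 70.0 and 71.4 CPM after 8 h, and 77.8, 77.4 and 78.3 CPM after 24 h. All of its 8 h libraries were below the untreated ones (-0.24 ± 0.04, adjusted p = 0.00015), and it rose by 0.13 ± 0.04 to 24 h (adjusted p = 0.014), except without TEPA 8 h replicate 2 (0.12, adjusted p = 0.053). Its 24 h value was -0.11 ± 0.04 (adjusted p = 0.027), and the threshold was missed without untreated replicates 1 or 2 or TEPA 24 h replicates 1 or 2 (-0.11 to -0.09) and with upper-quartile factors, DESeq2, no low count filter or only the 2 groups compared (-0.12 to -0.09, adjusted p = 0.051 to 0.081).

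Other complex IV members stayed low at 24 h. COX7A2, the non-muscle form of its subunit, had 107, 104 and 105 CPM in the untreated libraries, 83.1, 85.7 and 87.4 CPM after 8 h, and 86.6, 88.1 and 85.1 CPM after 24 h. Both treated groups lay wholly below the untreated one, and the log2 fold changes were -0.30 ± 0.04 after 8 h (adjusted p = 6.7e-06) and -0.28 ± 0.04 after 24 h (adjusted p = 1e-05). COX4I1, the general form of the subunit that regulates the enzyme by ATP, had 240.1, 225 and 235 CPM in the untreated libraries, 202, 204 and 200.4 CPM after 8 h, and 198, 203 and 197 CPM after 24 h. It too was below untreated in every treated library, with -0.21 ± 0.04 after 8 h (adjusted p = 0.00019) and -0.23 ± 0.04 after 24 h (adjusted p = 6.4e-05), with -0.02 ± 0.04 between the times (adjusted p = 0.65). The 6 members lower at 8 h only were COX6A1, COX6B1, COX7B, COX7C, COX8A and NDUFA4, and the 5 lower at both times were COX4I1, COX5B, COX6C, COX7A2 and COX7A2L. Without TEPA 24 h replicate 2, COX6B1 was called lower at 24 h as well (-0.10, adjusted p = 0.044). Without untreated replicate 1, COX6A1 was called higher at 24 h (0.13, adjusted p = 0.047). COX6B1 had 101, 98.8 and 103 CPM in the untreated libraries, 86.8, 86.6 and 84.3 CPM after 8 h, and 95.4, 106 and 92.0 CPM after 24 h, with -0.23 ± 0.05 at 8 h (adjusted p = 0.00090) and 0.19 ± 0.05 from 8 h to 24 h (adjusted p = 0.0034). NDUFA4 had 72.0, 71.5 and 73.8 CPM in the untreated libraries, 64.3, 65.5 and 64.1 CPM after 8 h, and 73.0, 74.1 and 71.0 CPM after 24 h. Its 8 h libraries lay below and its 24 h libraries overlapped the untreated ones, with -0.16 ± 0.04 at 8 h (adjusted p = 0.0020) and 0.17 ± 0.04 between the times (adjusted p = 0.0013). COX5A was the member called neither way against untreated cells (-0.08 ± 0.04 at 8 h, adjusted p = 0.087), although its 3 libraries at 8 h lay below the untreated ones.

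Complex IV has paralogs restricted to certain tissues or conditions, and these were almost silent. COX4I2 (lung and hypoxia), COX6A2 and COX7A1 (heart and muscle), COX7B2 and COX8C had 0 counts in all 9 libraries, which allows at most 3 counts in any library by counting error alone. COX6B2, the testis form, had between 0 and 11 counts, and NDUFA4L2, a hypoxia-responsive relative of NDUFA4, between 0 and 2 counts. ATP5MGL, a relative of ATP5MG, had at most 3 counts in a library. These 8 members were not tested. In each pair the counts of all 3 groups lay almost wholly in the general form.

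Summed over its 19 members, complex IV stood at 1396 ± 35.8 CPM in untreated cells, 1186 ± 18.6 CPM after 8 h and 1307 ± 37.7 CPM after 24 h (SD, n = 3). The mean sum differed from untreated by -15.1% at 8 h and by -6.38% at 24 h. For complex III the differences were -11.4% and -10.7%, from 935 ± 2.68 CPM in untreated cells to 828 ± 10.8 and 835 ± 21.3 CPM. That sum leaves out CYC1, a complex III subunit whose name the rule does not match, and so does not stand for the whole complex. The mean of CYC1 was 266 CPM in untreated cells, 280 CPM after 8 h and 187 CPM after 24 h. Complexes I, II and V differed by -6.64%, -8.38% and -6.69% at 8 h, and by -6.00%, -5.54% and -6.53% at 24 h. In every complex the 3 sums at 8 h lay below the 3 untreated sums. These sums are descriptions, weighted towards abundant genes, and carry no test.

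The members of complex III, which do not include CYC1, fell almost as uniformly at 8 h. UQCRC2, a core protein on the matrix side, had 133, 136 and 136 CPM in the untreated libraries, 112, 114 and 111 CPM after 8 h, and 95.3, 108 and 97.2 CPM after 24 h. The 3 groups did not overlap, with untreated highest and 24 h lowest. It fell by 0.27 after 8 h and 0.43 after 24 h on the log2 scale (SE 0.04 and 0.04, adjusted p = 0.00012 and 7.8e-07), and by 0.16 between the times (adjusted p = 0.0049). Its partner UQCRC1 was also called lower at 8 h and 24 h (-0.19 ± 0.04 and -0.26 ± 0.04), as was UQCRFS1, the Rieske iron-sulfur protein (-0.20 ± 0.04 and -0.16 ± 0.04). UQCRB, which helps to form the ubiquinone site, had 139, 142 and 139 CPM in the untreated libraries, 125, 121 and 124 CPM after 8 h, and 126, 131 and 132 CPM after 24 h. Every treated library was below every untreated one, with -0.18 ± 0.04 after 8 h (adjusted p = 0.00056) and -0.11 ± 0.04 after 24 h (adjusted p = 0.015). The 24 h value did not pass without untreated replicate 2 (-0.10, adjusted p = 0.051) or TEPA 24 h replicate 1 (-0.09, adjusted p = 0.088), or with upper-quartile factors (-0.08, adjusted p = 0.053).

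UQCRH, the acidic hinge protein that meets cytochrome c, was lower at 8 h only. It had 136, 135 and 133 CPM in the untreated libraries, 119, 122 and 127 CPM after 8 h, and 133, 143 and 134 CPM after 24 h, with -0.14 ± 0.04 at 8 h, 0.02 ± 0.04 at 24 h and 0.16 ± 0.04 between the times (adjusted p = 0.0084, 0.71 and 0.0030 in that order). Its libraries at 8 h lay below all others. UQCRHL, a near-identical intronless copy, had 18.0, 19.0 and 18.0 CPM in the untreated libraries, 15.7, 16.1 and 16.0 CPM after 8 h, and 17.9, 17.5 and 19.4 CPM after 24 h and ran alongside it, with -0.20 ± 0.06 at 8 h (adjusted p = 0.011) and 0.20 ± 0.06 between the times (adjusted p = 0.012), or 0.16 (adjusted p = 0.057) without TEPA 24 h replicate 3. Reads of such copies can be split by the counting, so both rows are uncertain. UQCR11 was the complex III member not called at 8 h (0.11 ± 0.05, adjusted p = 0.090).

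Complex II has only 4 subunits. SDHC, a membrane anchor, had 86.3, 81.5 and 80.1 CPM in the untreated libraries, 68.7, 75.4 and 70.6 CPM after 8 h, and 81.2, 82.4 and 80.1 CPM after 24 h. The 8 h libraries were below the others, with -0.21 ± 0.04 at 8 h, -0.03 ± 0.04 at 24 h and 0.18 ± 0.04 between the times (adjusted p = 0.0011, 0.66 and 0.0023 in that order). SDHA, the flavoprotein that oxidises succinate, had 39.5, 37.1 and 39.6 CPM in the untreated libraries, 33.3, 33.7 and 34.9 CPM after 8 h, and 33.5, 34.6 and 33.0 CPM after 24 h. It was below untreated in all treated libraries, with -0.19 ± 0.05 after 8 h (adjusted p = 0.0036) and -0.20 ± 0.05 after 24 h (adjusted p = 0.0022). Of its canonical exon bases 69.4% lie in another gene on the same strand, and its named pseudogenes held counts equal to 29.2% of its own, so its level is uncertain. SDHB, the iron-sulfur subunit, had 105, 108 and 110.2 CPM in the untreated libraries, 103, 100.4 and 106 CPM after 8 h, and 99.7, 107 and 96.8 CPM after 24 h, and SDHD, the other anchor, had 52.3, 50.7 and 54.8 CPM in the untreated libraries, 53.3, 47.5 and 46.4 CPM after 8 h, and 49.5, 44.4 and 55.7 CPM after 24 h. For both the groups overlapped in at least 1 comparison with untreated cells and neither was called, with SDHB at -0.06 ± 0.04 and -0.09 ± 0.04 and SDHD at -0.10 ± 0.07 and -0.08 ± 0.07 at 8 h and 24 h. SDHB passed at 24 h without TEPA 24 h replicate 2 (-0.13, adjusted p = 0.017).

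Complex I had calls in both directions, with 20 members lower and 6 higher of 37 at 8 h. The 6 include NDUFA13, NDUFA7 and NDUFV2, which rest on few counts and share most exon bases with another gene. Among the 7 core subunits of complex I, which carry the flavin and iron-sulfur clusters, 2 fell and 3 rose at 8 h, and the median was 0.06. Among its 30 accessory subunits 18 fell and 3 rose, and the median was -0.17. All genes tested had 24.5% lower and 25.2% higher, and the contrast of core and accessory genes was not tested. The core counts include NDUFV1, NDUFV2 and NDUFS8, whose calls below depend on single libraries. NDUFS7, the core subunit that holds the cluster next to ubiquinone, had 92.8, 88.9 and 94.6 CPM in the untreated libraries, 77.3, 82.8 and 82.4 CPM after 8 h, and 56.4, 63.0 and 57.9 CPM after 24 h. Its groups did not overlap and stepped down from untreated to 8 h to 24 h. On the log2 scale the difference from untreated was -0.19 ± 0.05 at 8 h (adjusted p = 0.0037) and grew to -0.64 ± 0.05 by 24 h (adjusted p = 2.7e-08), with -0.45 ± 0.05 between the times (adjusted p = 1.1e-06), and the 24 h mean fell by 35.8% from untreated. This was the lowest value of any member against untreated cells.

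Another pair of accessory subunits shared that order of groups. NDUFB10, of the distal membrane arm, had 78.0, 76.4 and 80.6 CPM in the untreated libraries, 70.0, 70.9 and 70.3 CPM after 8 h, and 51.8, 55.9 and 52.0 CPM after 24 h. It fell by 0.15 at 8 h and by 0.56 at 24 h on the log2 scale (SE 0.04 and 0.04, adjusted p = 0.0059 and 2.9e-08), and by 0.40 between the times (adjusted p = 9.1e-07). NDUFS4, an accessory subunit of the NADH-oxidising arm known from Leigh syndrome, had 51.0, 49.9 and 51.5 CPM in the untreated libraries, 38.3, 40.8 and 37.8 CPM after 8 h, and 35.1, 34.8 and 35.2 CPM after 24 h. Its values were -0.38 ± 0.04 at 8 h, -0.53 ± 0.04 at 24 h and -0.15 ± 0.04 between the times (adjusted p = 3.9e-06, 7.8e-08 and 0.0091 in that order), the last not called without TEPA 8 h replicate 2 (-0.11, adjusted p = 0.073). NDUFS7, NDUFB10 and NDUFS4 were the 3 members beyond a log2 fold change of 0.5 at 24 h, a size that 18.7% of all genes tested passed in either direction.

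Other accessory subunits fell at 8 h and then stayed or returned. NDUFA1, a small X-linked membrane subunit, had 38.4, 41.0 and 39.6 CPM in the untreated libraries, 31.0, 30.1 and 28.6 CPM after 8 h, and 29.8, 30.0 and 30.2 CPM after 24 h. Both treated groups lay below untreated and overlapped each other, with -0.41 ± 0.05 after 8 h (adjusted p = 5.3e-06) and -0.40 ± 0.05 after 24 h (adjusted p = 4.2e-06). NDUFB6, a membrane arm subunit, had 57.2, 57.4 and 56.6 CPM in the untreated libraries, 46.1, 46.3 and 45.1 CPM after 8 h, and 57.9, 58.8 and 59.4 CPM after 24 h. Its 8 h libraries stood apart below the others, with -0.32 ± 0.04 at 8 h, 0.04 ± 0.04 at 24 h and 0.36 ± 0.04 between the times (adjusted p = 7.2e-06, 0.39 and 1.3e-06 in that order), the largest rise of any member from 8 h to 24 h. NDUFB6 was 1 of 8 complex I members lower at 8 h and higher again at 24 h without a call against untreated cells at 24 h. Of the others, NDUFB2 (-0.15 ± 0.04 at 8 h and 0.18 ± 0.04 between the times), NDUFB3 (-0.15 ± 0.04 and 0.19 ± 0.04), NDUFB4 (-0.21 ± 0.04 and 0.23 ± 0.04) and NDUFA2 (-0.33 ± 0.05 and 0.23 ± 0.05) kept both calls in every alternative fit, the fold limit of 0.5 aside. NDUFA3 (-0.29 ± 0.06 and 0.17 ± 0.06) lost its rise without TEPA 24 h replicate 2 (0.13, adjusted p = 0.081), and NDUFA8 (-0.19 ± 0.04 and 0.13 ± 0.04) without that library or TEPA 8 h replicate 3 (0.11 and 0.10, adjusted p = 0.061 and 0.090). NDUFB1 (-0.18 ± 0.06 and 0.14 ± 0.06) lost its fall without untreated replicate 2 or TEPA 8 h replicate 3 (-0.15 and -0.17), and its rise without untreated replicate 3, TEPA 8 h replicates 1 or 3 or TEPA 24 h replicates 1 or 2 (0.10 to 0.16) or with no low count filter (0.15).

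Core subunits also rose. NDUFS1, the largest subunit and a carrier of iron-sulfur clusters, had 250.3, 253 and 254 CPM in the untreated libraries, 264, 267 and 258 CPM after 8 h, and 316, 306 and 319 CPM after 24 h. The 24 h libraries stood above all others, with 0.06 ± 0.03 at 8 h, 0.31 ± 0.03 at 24 h and 0.25 ± 0.03 between the times (adjusted p = 0.16, 1.2e-06 and 9.9e-06 in that order). NDUFS3, a core subunit of the arm that reduces ubiquinone, had 76.5, 77.2 and 80.6 CPM in the untreated libraries, 93.8, 94.0 and 94.5 CPM after 8 h, and 97.4, 94.3 and 92.9 CPM after 24 h. Both treated groups lay above untreated, by 0.27 ± 0.04 and 0.28 ± 0.04 (adjusted p = 2.6e-05 and 1.3e-05), and it was the only member called higher at both times. NDUFS3 falls outside the rule for naming and is described because it was that single case. NDUFV1, the flavin subunit that takes electrons from NADH, was higher at 8 h (0.12 ± 0.04, adjusted p = 0.013) but not called at 24 h (-0.07 ± 0.04), and it too was chosen after its values were seen. NDUFS8, another core subunit, was called lower at 8 h (-0.13 ± 0.05, adjusted p = 0.045). That call was lost without untreated replicates 1 or 3, TEPA 8 h replicates 1 or 2 or TEPA 24 h replicate 1, with values from -0.14 to -0.11 (adjusted p = 0.059 to 0.12), and with upper-quartile factors (-0.12, adjusted p = 0.069) or the replicate block (-0.13, adjusted p = 0.070).

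**Figure D3:**
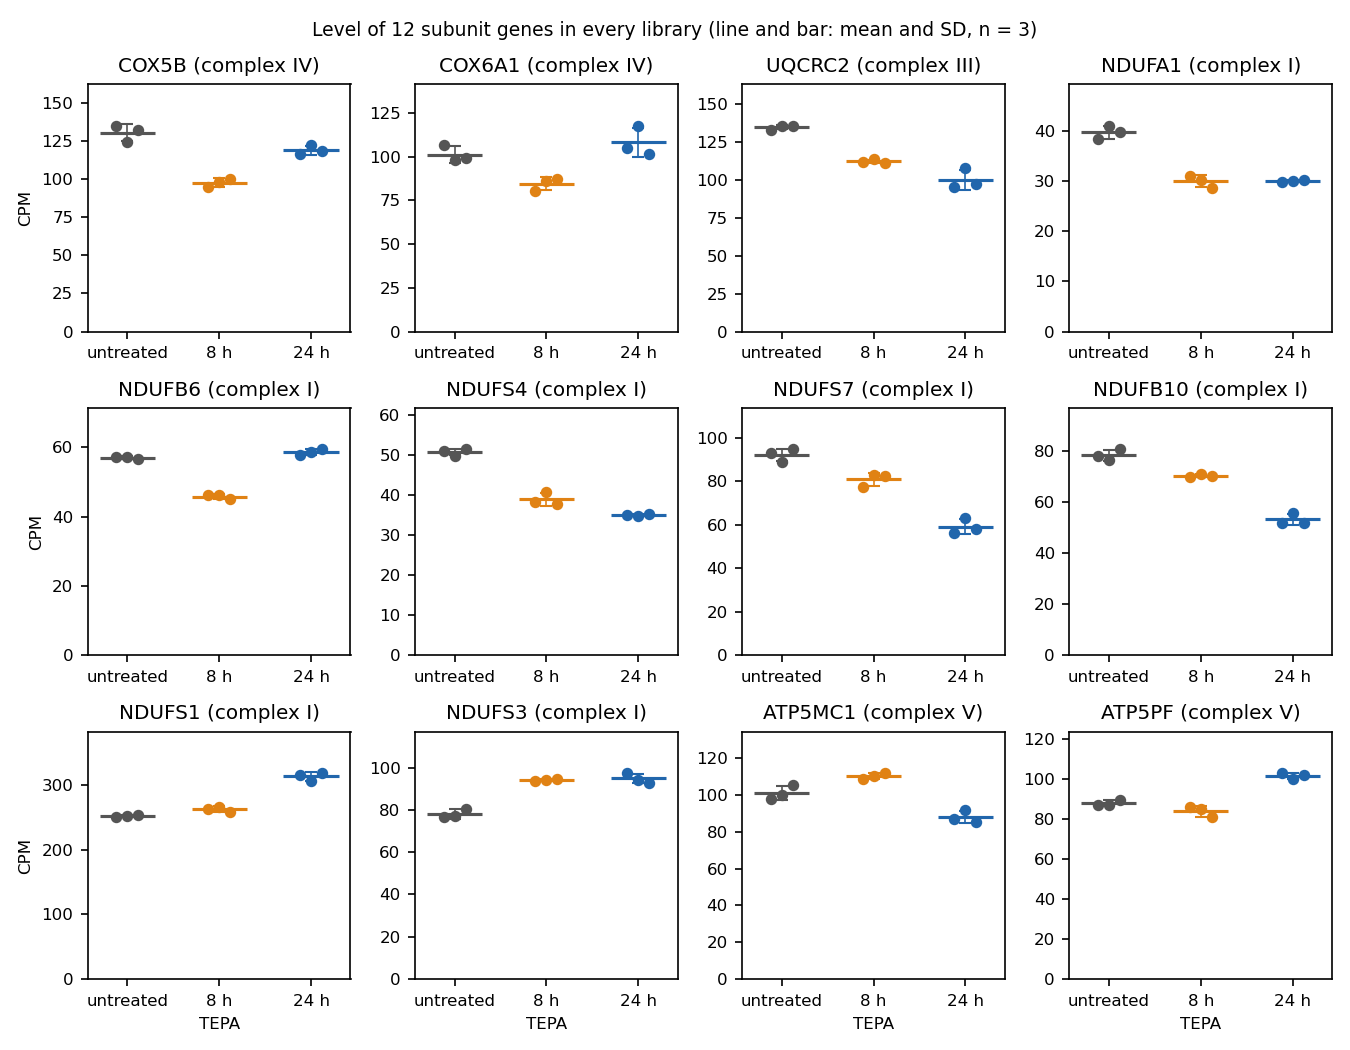
Each panel plots the CPM of 1 subunit gene in the 9 libraries, untreated, TEPA 8 h and TEPA 24 h, from 0, with the mean and SD of 3 libraries. NDUFS7 and NDUFB10 step down over the groups, COX5B, COX6A1 and NDUFB6 dip at 8 h, NDUFS1 and ATP5PF are highest at 24 h, and ATP5MC1 is highest at 8 h and lowest at 24 h.

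The 3 members beyond a log2 fold change of 0.5 at 8 h, a size that 17.8% of all genes tested passed in either direction, were all higher and all rested on few counts. NDUFA13, also known as GRIM19, had 1.41, 2.04 and 1.80 CPM in the untreated libraries, 6.65, 5.88 and 6.39 CPM after 8 h, and 2.02, 2.06 and 1.92 CPM after 24 h. Its 8 h libraries stood far above the rest, with 1.84 ± 0.13 at 8 h, 0.19 ± 0.15 at 24 h and -1.65 ± 0.13 between the times (adjusted p = 3.1e-08, 0.31 and 3.4e-08 in that order). NDUFV2, a core iron-sulfur subunit, had 0.773, 1.12 and 0.786 CPM in the untreated libraries, 1.47, 1.28 and 1.17 CPM after 8 h, and 0.961, 0.927 and 0.973 CPM after 24 h and was at 0.54 ± 0.21 at 8 h (adjusted p = 0.039). NDUFA7 had 0.133, 0.219 and 0.228 CPM in the untreated libraries, 0.275, 0.392 and 0.653 CPM after 8 h, and 0.432, 0.185 and 0.445 CPM after 24 h and was at 1.15 ± 0.44 (adjusted p = 0.041). Both 8 h groups lay above the untreated one, but the NDUFV2 call was lost without untreated replicates 1 or 3 or TEPA 8 h replicates 1 or 2 (0.44 to 0.55), and the NDUFA7 call without untreated replicates 1, 2 or 3 or TEPA 8 h replicates 2 or 3 (0.75 to 1.26). Both calls were also lost when TEPA 24 h replicate 1 was left out, with NDUFV2 at 0.54 (adjusted p = 0.053) and NDUFA7 at 1.15 (adjusted p = 0.051). DESeq2 called neither (adjusted p = 0.096 for NDUFV2 and 0.067 for NDUFA7), and NDUFV2 also missed the threshold with no low count filter (adjusted p = 0.073), with only the 2 groups compared (adjusted p = 0.056) and with the replicate block (adjusted p = 0.052).

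These 3 genes share most of their exon sequence with another annotated gene. In GENCODE v44, 83.9% of the canonical exon bases of NDUFA13, 89.96% of those of NDUFV2 and 77.9% of those of NDUFA7 also lie in exons of a different gene on the same strand. The authors counted reads on another annotation release, and whether it holds the same overlaps was not checked. NDUFA13 averaged 134 counts per library, NDUFV2 42.9 and NDUFA7 13.3. Reads from shared bases can be counted for neither gene, so these rows need not show the level or the change of the subunit messages, and the part of the partner genes was not tested. Another 4 members tested passed 50% of shared bases: NDUFB8 (72.0%), SDHA (69.4%), NDUFA11 (68.2%) and ATP5PO (63.8%). Of these, SDHA was called at 8 h. Without all 7, 51 of 73 members were lower and 5 higher at 8 h, none of them beyond 0.5, and 35 were lower and 3 higher at 24 h. Pseudogenes named after NDUFV2 held more counts than the gene itself, at 170% of its own.

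**Figure D4:**
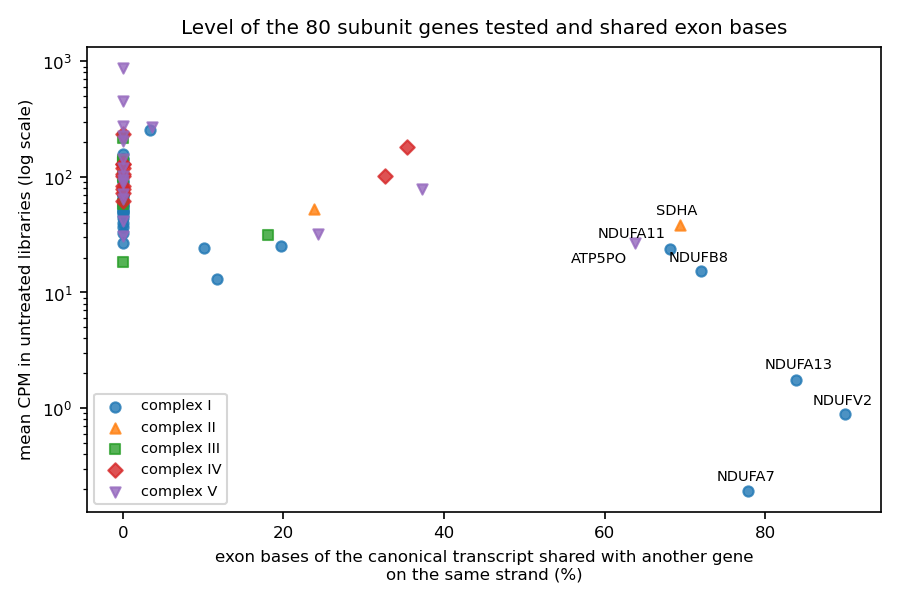
Each point is 1 of the 80 subunit genes tested, placed by the percent of its canonical exon bases that another gene on the same strand shares and by its mean CPM in untreated libraries on a log scale. The 7 named genes share over 50%, and NDUFA13, NDUFV2 and NDUFA7 have the lowest levels of all.

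Complex V is described by role. In the F1 head, which makes ATP, 3 of 5 genes fell at 8 h and 3 at 24 h. Among all genes tested, 24.5% were lower at 8 h and 26.8% at 24 h, and the difference of each role from these shares was not tested. The 24 h count includes ATP5F1B (-0.10 ± 0.03). With single libraries of the groups compared removed, its call failed in 4 of 6 fits, and it also failed under 2 other settings. ATP5F1A and ATP5F1C, the alpha and gamma subunits, were lower at 8 h (-0.13 ± 0.03 and -0.12 ± 0.03) and at 24 h (-0.12 ± 0.03 and -0.12 ± 0.03). The delta subunit gene ATP5F1D went the other way at 8 h, with 140.1, 139.7 and 145 CPM in the untreated libraries, 156, 157 and 163 CPM after 8 h, and 136, 143 and 129 CPM after 24 h. Its 8 h libraries lay above the rest, with 0.17 ± 0.04 at 8 h, -0.06 ± 0.04 at 24 h and -0.22 ± 0.04 between the times (adjusted p = 0.0030, 0.27 and 0.00024 in that order). ATP5F1E, the epsilon subunit, was lower at 8 h (-0.22 ± 0.04) and rose by 0.24 ± 0.04 to 24 h.

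The 3 c ring genes encode the same mature proton-carrying protein. ATP5MC1 had 97.9, 99.8 and 105 CPM in the untreated libraries, 108, 110.3 and 112 CPM after 8 h, and 87.0, 91.9 and 85.4 CPM after 24 h. It was the member called in opposite directions, higher at 8 h (0.13 ± 0.04, adjusted p = 0.018) and lower at 24 h (-0.20 ± 0.04, adjusted p = 0.00081), and its groups did not overlap. It fell by 0.32 between the times (adjusted p = 7.1e-06). The 8 h rise was not called without untreated replicates 1 or 2 or TEPA 8 h replicates 2 or 3 (0.10 to 0.12). ATP5MC2 and ATP5MC3 fell at both times, with -0.18 ± 0.04 and -0.12 ± 0.04 at 8 h and -0.13 ± 0.04 and -0.24 ± 0.04 at 24 h. Of the 6 fits that left out a library of the groups compared, 3 lost the 24 h call of ATP5MC2. The 8 h call of ATP5MC3 was lost in 1 of 6.

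In the peripheral stalk, which holds the head still, 1 of 4 genes fell at 8 h and 1 rose at 24 h. ATP5PF, coupling factor F6, had 86.8, 87.2 and 89.7 CPM in the untreated libraries, 85.9, 85.0 and 80.8 CPM after 8 h, and 103, 100.0 and 102 CPM after 24 h. Its 24 h libraries stood above all others, with -0.07 ± 0.04 at 8 h, 0.21 ± 0.04 at 24 h and 0.28 ± 0.04 between the times (adjusted p = 0.16, 0.00023 and 1.6e-05 in that order). ATP5PD was the stalk gene that fell at 8 h (-0.25 ± 0.05), and ATP5PB and ATP5PO were not called in any comparison. ATP5IF1, the inhibitor that stops the enzyme from running backwards, had 75.5, 68.1 and 69.5 CPM in the untreated libraries, 56.2, 57.9 and 58.7 CPM after 8 h, and 60.9, 63.2 and 61.7 CPM after 24 h. All treated libraries lay below untreated, with -0.30 ± 0.05 after 8 h (adjusted p = 4.9e-05) and -0.20 ± 0.04 after 24 h (adjusted p = 0.0016). Its 24 h libraries lay above its 8 h ones, with 0.10 ± 0.05 between the times (adjusted p = 0.064). That difference passed with RLE factors, upper-quartile factors, at least 10 counts in every library or only the 2 groups compared (0.11 to 0.13, adjusted p = 0.0093 to 0.045) and without untreated replicates 1 or 2 (0.10 and 0.11, adjusted p = 0.026 and 0.045). ATP5ME, a membrane subunit at the dimer interface, had 31.1, 30.5 and 30.5 CPM in the untreated libraries, 25.5, 26.7 and 26.3 CPM after 8 h, and 25.5, 25.7 and 24.1 CPM after 24 h, again with every treated library below untreated, with -0.23 ± 0.05 after 8 h (adjusted p = 0.0012) and -0.29 ± 0.05 after 24 h (adjusted p = 0.00015). Of the 5 such membrane subunits, 4 fell at 8 h and 3 at 24 h, where 24.5% and 26.8% of all genes tested were lower. The 24 h count includes ATP5MF (-0.11 ± 0.04). With single libraries of the groups compared removed, its call failed in 4 of 6 fits, and it also failed under 6 other settings. The 8 h count includes ATP5MG (-0.18 ± 0.06), whose call failed in 1 of 6 such fits.

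Across complexes, 30 of the 52 members lower at 8 h were also called lower at 24 h, and 22 were not. The 2 counts rest on the same untreated libraries, and the same shares over all genes called lower at 8 h were not computed. The 52 were picked for low values at 8 h, and the comparison of 24 h with 8 h uses those libraries again, which favours a rise. Counts within the 52 are therefore descriptions only. Of the 52, 26 rose from 8 h to 24 h and 7 fell further, namely ATP5MC3, NDUFB10, NDUFS4, NDUFS7, NDUFV3, UQCR10 and UQCRC2. The further fall of UQCR10 (-0.10, adjusted p = 0.049) was lost in 8 alternative settings (-0.10 to -0.08, adjusted p = 0.060 to 0.20) and without untreated replicates 2 or 3, TEPA 8 h replicates 1, 2 or 3 or TEPA 24 h replicates 1 or 3 (-0.11 to -0.08). That of NDUFV3 (-0.13, adjusted p = 0.024) was lost with DESeq2 (adjusted p = 0.061), with no low count filter (adjusted p = 0.086) and without TEPA 8 h replicates 1, 2 or 3 or TEPA 24 h replicates 2 or 3 (-0.14 to -0.11). In complex IV 8 of 11 rose again and none fell further, against 11 and 4 of 20 in complex I. Another 13 members were called in neither comparison with untreated cells. Read by libraries alone, all 3 libraries at 8 h lay below all untreated ones for 58 of 80 members and above them for 10, where 28.6% and 29.2% of all genes tested did so. At 24 h the counts were 40 and 4, against 28.9% and 28.4%. From 8 h to 24 h, 34 members lay wholly above and 16 wholly below, against 29.6% and 32.4%. Each of the 12 complex IV members tested was below at 8 h.

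Per kilobase of canonical transcript, median levels in untreated cells were 83.3 CPM in complex I, 63.2 in complex II, 63.8 in complex III, 189 in complex IV and 141 in complex V, over members without most exon bases shared. The members together made up 0.777% of all counts.

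The 13 subunits encoded by the mitochondrial genome ran in a different direction at 8 h. Their summed level was 14336, 24455 and 17561 CPM in the untreated libraries, 33907, 31020 and 34733 CPM after 8 h, and 15128, 14280 and 14469 CPM after 24 h. The untreated libraries spread widely, and the 8 h libraries lay above all of them. At 8 h 12 of the 13 genes rose, with a median of 0.95, where 25.2% of all genes tested were higher. At 24 h 9 were called lower, with a median of -0.36, where 26.8% of all genes tested were lower, but 7 of the 9 had libraries that overlapped untreated. The 24 h count was 2 without untreated replicate 2, the highest untreated library (median -0.13), 3 without TEPA 24 h replicates 2 or 3, and 1 with DESeq2. It was 12 without untreated replicate 1 (median -0.56), 12 with no low count filter and 10 without untreated replicate 3. The 8 h count was 12 in all these fits. MT-CO1 and MT-CO2, the copper-bearing subunits of complex IV, were higher by 0.82 ± 0.12 and 0.70 ± 0.10 at 8 h. Their 24 h values were -0.34 ± 0.11 and -0.34 ± 0.10, with MT-CO1 overlapping untreated and MT-CO2 wholly below it. MT-ND3 was the exception at 8 h (-0.02 ± 0.07, adjusted p = 0.86). Leaving mitochondrially encoded genes out of the library sizes changed no call among members chosen by the rule for naming.

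Other genes of the pathway were counted in the same way, against 24.5% lower and 25.2% higher among all genes tested at 8 h and 26.8% and 25.7% at 24 h. How these lists differ from the members was not tested. CYC1, cytochrome c1 of complex III and a member of the electron carrier list, was not called at 8 h (0.07 ± 0.04, adjusted p = 0.18) and fell by 0.51 at 24 h on the log2 scale (SE 0.04, adjusted p = 6.8e-08). Of 8 electron carriers and other entry points to ubiquinone, 3 fell and 2 rose at 8 h, and 4 fell and 1 rose at 24 h. ETFDH, which feeds electrons from fatty acid oxidation to ubiquinone, rose at both times, by 0.40 ± 0.06 and 1.09 ± 0.06 (adjusted p = 3.1e-05 and 4.5e-10). Of 19 complex I assembly genes, 3 fell and 4 rose at 8 h, and 6 fell and 5 rose at 24 h. Of 9 assembly genes of complexes II and V, 4 fell and 1 rose at 8 h, and 3 fell and 1 rose at 24 h. ATPAF1, a chaperone of the F1 head, was lower at both times (-0.47 ± 0.04 and -0.77 ± 0.04, adjusted p = 4.1e-07 and 1.4e-09), and so was TMEM242, which helps to build the complex V rotor (-0.56 ± 0.12 and -0.83 ± 0.12, adjusted p = 0.00095 and 2.2e-05).

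Among 16 nuclear regulators of respiratory genes, 4 fell and 5 rose at 8 h, and 6 fell and 3 rose at 24 h. The 8 h counts are 25% and 31.2% of the list, near the 24.5% and 25.2% of all genes tested. PPARGC1A, the coactivator of mitochondrial biogenesis, was scarce, with 4.40, 2.98 and 4.29 CPM in untreated libraries, 1.95, 2.20 and 2.64 CPM after 8 h and 3.41, 3.85 and 3.78 CPM after 24 h. It fell at 8 h (-0.78 ± 0.16, adjusted p = 0.00090) and was not called at 24 h. The DNA-binding factor NRF1 was not called at 8 h (-0.04 ± 0.06) and fell at 24 h (-0.24 ± 0.06, adjusted p = 0.0038). Of the GABP subunits, GABPB1 fell at both times (-0.26 ± 0.07 and -0.41 ± 0.07, adjusted p = 0.0038 and 7.6e-05). GABPA, which binds the DNA, fell at 8 h (-0.31 ± 0.08, adjusted p = 0.0065), with libraries that overlapped untreated, and was not called at 24 h (-0.09 ± 0.08). GABPB2 was higher at 8 h (0.19 ± 0.06, adjusted p = 0.019) and lower at 24 h (-0.36 ± 0.06, adjusted p = 0.00025), and its 8 h call was lost without untreated replicate 1 (0.15, adjusted p = 0.075), without TEPA 8 h replicate 2 (0.16, adjusted p = 0.095) and with no low count filter (0.18, adjusted p = 0.060). SP1 was higher at both times (0.25 ± 0.04 and 0.28 ± 0.04, adjusted p = 4.1e-05 and 1.2e-05), with all treated libraries above untreated, and YY1 was called at neither.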

How the data were processed

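RNA-Seq of MDA-MB-231 cells, untreated or treated with TEPA for 8 h or 24 h, gave 9 libraries, grouped by their labels. The authors prepared stranded mRNA libraries and used FastQC for read quality, HISAT2 for alignment to hg38 and featureCounts for strand-aware counting of read pairs over the exons of each gene name (GRCh38 annotation). Their deposited table holds raw counts, 1 column for each library, without normalization. The settings given set no option for read pairs that overlap several genes, which featureCounts leaves uncounted by default. The other cell lines and assays of the study were not analysed here.

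In R 4.3.3, edgeR 4.0.16 kept 16556 genes with filterByExpr (minimum count 10), scaled libraries by TMM factors from 0.978 to 1.039 and fitted all 9 libraries in 1 quasi-likelihood model with group as the term. The biological coefficient of variation was 0.0481. A call needs an adjusted p under 0.05 (Benjamini-Hochberg, all 16556 genes). Standard errors (after ±) were obtained by dividing a log2 fold change by the root of its F statistic; ± SD is marked as such. The model was checked on simulated counts with known changes. With 3 libraries against 3, an exact permutation of 1 value cannot give a p under 0.1. Intervals and limits from counts cover counting error only.

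The members, lists and tests were chosen with earlier results of these data known. Members named with values in every library were the highest and lowest called member of each complex in each comparison with a mean of at least 100 counts, those called beyond a log2 fold change of 0.5, paralog pairs and all SDH genes. Lists covered electron carriers, assembly genes, nuclear regulators, mitochondrially encoded subunits and cell type markers. Positions, canonical transcripts and shared exon bases come from GENCODE v44 on hg38, which is not the annotation release used for the counting. Promoter windows come from RefSeq on GRCh38.p14. Alternatives were DESeq2 1.42.0, upper-quartile or RLE factors, no filter, at least 10 counts in every library, only the 2 groups compared, a fold limit of 0.5, mitochondrial genes left out of library sizes, the replicate number as a block, and each library left out in turn. Leaving out members with over 50% of exon bases shared was added after the data were seen. For 1 member, still part of the counts, values are not reported here.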

Additional observations from a re-analysis of the deposited data

Results flagged for a closer look

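For 18 named members the log2 fold change against untreated cells differed between the 2 times, by the test of the difference itself (24 h against 8 h, adjusted p under 0.05 in edgeR's quasi-likelihood test). Of all genes tested, 26.0% were higher and 28.8% lower in that comparison. ATP5MC1, ATP5PF, COX6A1, COX6C, NDUFA13, NDUFB6, SDHC, UQCRC2 and UQCRHL were named for being the highest or lowest called member of their complex in it. Their passing was thus fixed by the naming, and the count is a description only. The 24 h values lay above the 8 h values for COX5B (0.28), COX6A1 (0.36), COX6B1 (0.19), COX6C (0.13), NDUFA4 (0.17), SDHC (0.18), UQCRH (0.16), UQCRHL (0.20), NDUFB6 (0.36), NDUFS1 (0.25) and ATP5PF (0.28). They lay below the 8 h values for NDUFS7 (-0.45), NDUFB10 (-0.40), NDUFS4 (-0.15), UQCRC2 (-0.16), ATP5MC1 (-0.32), ATP5F1D (-0.22) and NDUFA13 (-1.65). NDUFA13 rests on few counts, and UQCRH and UQCRHL are near-identical copies. With 3 libraries in each group, no group was large enough to test for a library far from the others.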

How the results depend on the processing

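Fits were repeated under other normalization factors, DESeq2, other filters, only the 2 groups compared and library sizes without mitochondrial genes. In these fits the numbers of members called in each direction stayed within 1.5 times of those reported. The members' medians kept their sign and moved by less than the SD of that median between libraries of a group. A fold limit moved the counts by construction: beyond a log2 fold change of 0.5, 3 members were higher and 0 lower at 8 h, 0 higher and 3 lower at 24 h, and 0 higher and 1 lower from 8 h to 24 h. Without the members that share most exon bases, an alternative chosen after seeing the data, 5 of 73 members were higher at 8 h, since 3 of the 8 were left out. With 1 library left out at a time, the members higher at 8 h ranged from 4 to 9 and those lower from 50 to 56. At 24 h they ranged from 3 to 4 and from 28 to 41, and from 8 h to 24 h from 24 to 32 and from 10 to 14. In all 6 fits that left out a library of the groups compared, 47 of 52 lower and 3 of 8 higher calls at 8 h, 25 of 36 and 3 of 3 at 24 h, and 20 of 29 higher and 10 of 13 lower calls from 8 h to 24 h were kept.

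Values that changed sign were uncalled in the reported fit and in the fits that turned them. For UQCRHL at 24 h against untreated they were 0.00123 with RLE factors, 0.0203 with upper-quartile factors, 0.000862 with DESeq2 and 0.00454 with at least 10 counts in every library. For SDHC at 24 h it was 0.00146 with upper-quartile factors. From 8 h to 24 h SDHA gave 0.00266 with RLE factors, 0.00296 with upper-quartile factors, 0.00276 with DESeq2 and 0.0164 with only the 2 groups compared, and COX4I1 gave 0.00509 with the last. With 1 library left out, sign changes at 24 h were seen for UQCRHL (range -0.0485 to 0.0237), SDHC (-0.0483 to 0.00527), NDUFA4 (-0.00850 to 0.0215), NDUFV2 (-0.0105 to 0.287), UQCRH (-0.0133 to 0.0367) and COX6B1 (-0.104 to 0.000377). From 8 h to 24 h they were seen for NDUFA1 (-0.0221 to 0.0352), SDHA (-0.0266 to 0.0152), NDUFA7 (-0.552 to 0.0913), SDHB (-0.0721 to 0.00162) and SDHD (-0.0618 to 0.0978). The cause was not tested. Of single values of named members, 36 lost and 11 gained a call in some setting and 1399 kept direction and call.

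Replicate numbers did not pair the libraries: deviations of same-numbered libraries correlated between -0.080 and 0.038. With the replicate number as a block, 7 members were higher and 51 lower at 8 h, 3 and 36 at 24 h, and 28 and 12 from 8 h to 24 h. NDUFV2 at 8 h lost its call under the block (0.55, adjusted p = 0.052 in edgeR's quasi-likelihood test). Low counts limit NDUFA7 and NDUFV2, and the 8 members not tested had too few counts for a test.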
